A study of Arabidopsis thaliana with 12 samples.

Results

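The genotype by salt interaction asks whether salt changed a transcript differently in Arabidopsis seedlings that carry a poplar SnRK2 kinase gene than in wild-type seedlings. For each probe set it was taken as the salt response of the overexpressor (salt minus mock) minus the salt response of the wild type, on the log2 scale. It used 12 of the 12 arrays of the series, 3 in each of 4 groups, and covered 22746 probe sets of the Affymetrix ATH1 array. The wild type was the Columbia strain, and the overexpressor was a Columbia line with the construct 35S:PtSnRK2.7:NOS. Seedlings of both genotypes were grown for 7 days on half-strength MS medium and then moved for 2 days to the same medium without salt (mock) or with 200 mM NaCl (salt), and RNA was taken from whole seedlings. The overexpressor was 1 transgenic line driven by the constitutive 35S promoter, and the control was the untransformed wild type, so the transgene, its insertion site and the line's history cannot be told apart. Some sample titles spell the transgene PrSnRK2.7. The poplar transcript itself was not analysed here, because the array carries probes for Arabidopsis genes.

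SnRK2 kinases are plant protein kinases that are activated by osmotic stress and, in some subclasses, also by the hormone abscisic acid (ABA). The study puts PtSnRK2.7 in such a subclass. In ABA signaling, receptors bound to the hormone inhibit phosphatases that otherwise keep these kinases off, and the freed kinases phosphorylate transcription factors that switch on dehydration genes. Salt exposes a seedling to water loss and to sodium at once, and it also changes the uptake of nutrients such as nitrate, phosphate and sulfate. A positive interaction can mean a larger rise under salt in the overexpressor, a smaller fall, or a rise in place of a fall. Group levels are therefore given for many of the genes, for some of them in part of the 4 groups only.

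The arrays had similar overall brightness, with median signals between 169.4 and 194.2 and 20th percentiles between 20.6 and 27.9. The 3 wild-type salt arrays stood apart from the rest in their spread. The median SD of the log2 signal over probe sets was 0.36 in that group, against 0.20 in both mock groups and 0.21 in overexpressor salt. In the 2 measured shoot markers, the carbonic anhydrase gene CA1 and the Rubisco activase gene RCA, wild-type salt replicate 1 had the lowest and replicate 2 the highest signal of that group. CA1 read 1063, 12118 and 4867 in wild-type salt replicates 1, 2 and 3, and 1896, 2607 and 1815 in overexpressor salt. Both measured root markers, EXPA7 and EXPA18, read between 181 and 478 on all 12 arrays, with no called interaction. In whole seedlings, fewer cells of a type and less RNA per cell cannot be told apart. Array values below are given in the order of replicates 1, 2 and 3.

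Salt changed a large share of the transcriptome in each genotype. In limma fits, 8904 probe sets (39.1%) passed an adjusted p of 0.05 between wild-type salt and mock, and 9351 (41.1%) between overexpressor salt and mock. The interaction passed the same threshold in 68 probe sets, 56 of them (0.246%) where the overexpressor responded more positively than the wild type and 12 (0.0528%) where it responded more negatively. At an unadjusted p of 0.05 the interaction counted 2742 probe sets (12.1%). The median interaction of the 56 was 1.44 and that of the 12 was -1.65, beside -0.03 over all probe sets. The smallest interaction among the called probe sets was 0.75 in either direction. Of the 56, 39 could be paired with 1 Arabidopsis gene, and of the 12, 8 could. With allowance for unequal variances in the 4 groups, 0 probe sets passed after adjustment (1914 before it), and with no trend of the variance with intensity 1 and 2 passed. Without wild-type salt replicate 2 the counts were 466 and 294, and without overexpressor mock replicate 3 they were 4 and 1.

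**Figure D1:**
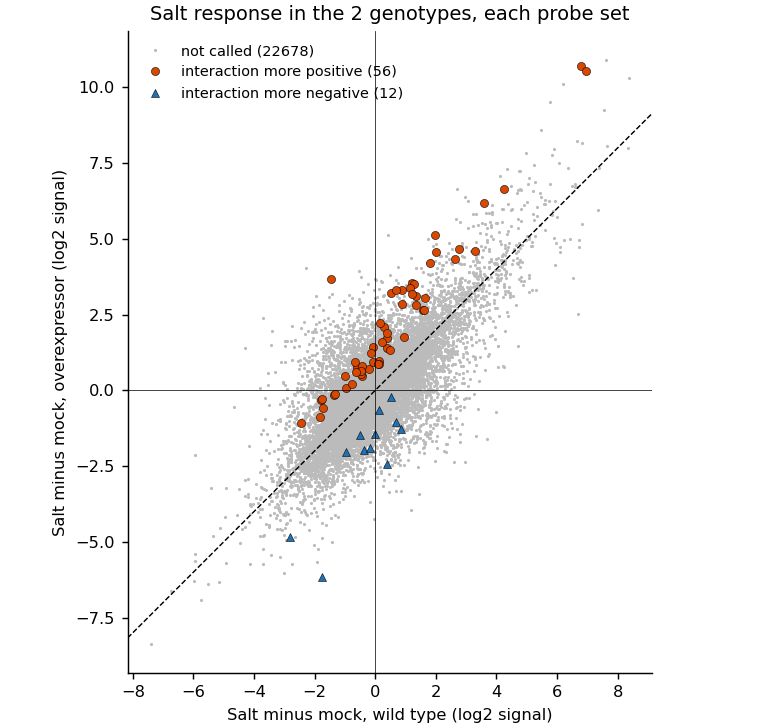
Salt change (log2 signal, salt minus mock) of the wild type on the x axis and of the overexpressor on the y axis, with 1 point for each of 22746 probe sets and a dashed line of equal response. The 56 called positive probe sets (orange circles) lie above the line and the 12 called negative ones (blue triangles) below it.

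Among the 56 probe sets with a more positive response, 26 rose under salt in both genotypes, 13 rose in the overexpressor without a call in the wild type, and 8 fell in the wild type and rose in the overexpressor. A further 6 fell in the wild type without a call in the overexpressor, and 3 fell in both. The 56 split nearly evenly by where the genotypes differed. Under mock alone 26 differed, all lower in the overexpressor, and under salt alone 25 differed, all higher in the overexpressor, with 1 in both and 4 in neither. Over all probe sets, 128 (0.563%) differed between genotypes under mock and 457 (2.01%) under salt. The 12 with a more negative response had 9 that were lower in the overexpressor under salt alone, 2 that were higher under mock alone and 1 with no call in either. These comparisons share their arrays with the interaction, and each is a piece of it.

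**Figure D2:**
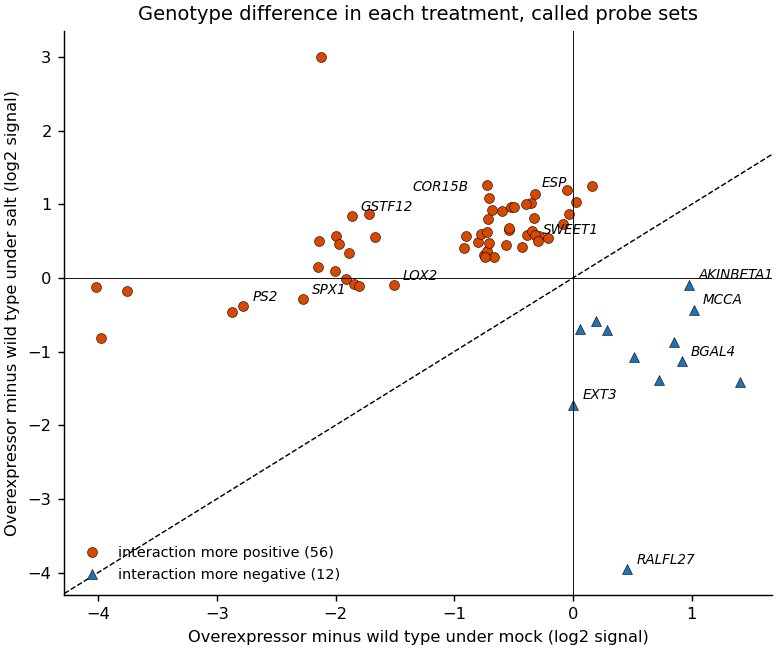
Overexpressor minus wild type (log2 signal) under mock on the x axis and under salt on the y axis for the 68 called probe sets, with 12 genes labelled and a dashed line where the interaction is 0. PS2, SPX1 and LOX2 lie far to the left near 0 on the y axis, COR15B, ESP and SWEET1 lie above 0 on the y axis, and RALFL27 and EXT3 lie far below it.

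Anthocyanin genes were among those that differed under mock. Anthocyanins are flavonoid pigments made from phenylalanine, decorated with sugars and acyl groups and stored in the vacuole. Of 34 genes on the anthocyanin and flavonoid list, 9 were measured. Of these, 2, GSTF12 among them, were paired through the study's supplementary tables, which hold genes selected on these same arrays. The interaction was called positive in 4 and negative in 0, beside 0.246% and 0.0528% of all probe sets. The median interaction of the 9 genes was 1.63, against -0.03 over all probe sets. Of the 9 estimates 8 were above 0, beside 10749 of all 22746. The regulators on the list, among them TT8 and the MYB activators, could not be paired with a probe set and were not analysed here.

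GSTF12 carries anthocyanins toward the vacuole and had the most positive interaction of the list. Its signal was 909, 1045 and 1484 in wild-type mock, 2221, 1349.8 and 1403 in wild-type salt, 379.6, 275 and 280.0 in overexpressor mock, and 3204, 2378 and 3145 in overexpressor salt. All 3 overexpressor mock arrays lay below all other arrays, and all 3 overexpressor salt arrays lay above all other arrays. The interaction was 2.701 (SE 0.32, adjusted p = 0.0073), made of a rise of 3.23 in the overexpressor (SE 0.23) and a change of 0.53 in the wild type that was not called (adjusted p = 0.085). GSTF12 was lower in the overexpressor under mock by a log2 difference of -1.86 (SE 0.23, adjusted p = 0.0028), while under salt the difference of 0.84 was not called (adjusted p = 0.076). The interaction passed the threshold with any 1 of the 12 arrays left out.

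DFR makes the committed step from dihydroflavonols to anthocyanidins. It read 1249, 1076 and 1628 in wild-type mock and 600.1, 346 and 328 in overexpressor mock, then 4067, 2245 and 3444 in wild-type salt and 4644, 4294 and 4998 in overexpressor salt. The genotypes did not overlap under either treatment, lower in the overexpressor under mock and higher under salt, but the salt difference of 0.55 was not called (adjusted p = 0.28). Salt raised DFR by 1.28 in the wild type and by 3.51 in the overexpressor, an interaction of 2.22 (SE 0.35, adjusted p = 0.031).

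UF3GT, a glycosyltransferase that adds xylose to anthocyanins, read 514, 522 and 796 in wild-type mock, 166, 142 and 104 in overexpressor mock, 1804, 1095 and 1381 in wild-type salt and 1842, 1311 and 1541 in overexpressor salt. The mock groups stood apart and the salt groups overlapped. The interaction was 2.301 (SE 0.33, adjusted p = 0.020). AT4G14090, annotated with anthocyanin biosynthesis, behaved alike, with 463, 604 and 834 in wild-type mock, 155, 205 and 123 in overexpressor mock, 1632, 770.0 and 1191 in wild-type salt, 1845, 1181 and 1773 in overexpressor salt, and an interaction of 2.42 (SE 0.41, adjusted p = 0.037). The malonyltransferase AT5MAT (1.63, adjusted p = 0.0503) and the flavonoid glucosyltransferase UGT78D2 (0.72, adjusted p = 0.053) fell just outside the threshold. Under mock, 6 of the 9 list members were lower in the overexpressor (median -1.67), beside 98 of all 22746 probe sets. Under salt 0 of 9 differed (median 0.12). DFR and AT4G14090 were each called in 3 of the 12 fits that left out 1 array, and UF3GT in 6.

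Phosphate starvation genes likewise had their called genotype differences under mock. In phosphate-starved plants the transcription factor PHR1 switches on phosphatases, lipid-remodeling enzymes and the SPX proteins that in turn restrain PHR1. Of 31 listed genes 10 were measured, each paired through the study's supplementary tables, which hold genes selected on these same arrays, so their shared direction is not independent evidence. The interaction was called positive in 3 (SPX1, PS2 and PAP17). An unadjusted p of 0.05 was passed by 9 of 10, beside 12.1% of all probe sets. All 10 estimates were above 0, with a median of 1.25. Under mock 7 of 10 were lower in the overexpressor (median -1.71), beside 98 of all 22746 probe sets, and under salt 0 differed (median -0.28). Salt raised 6 of the 10 in wild-type and 10 in overexpressor seedlings, beside 3917 and 3888 of all 22746 probe sets.

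SPX1, an intracellular phosphate sensor, read 1455, 2166 and 1643 in wild-type mock, 369.9, 323 and 384 in overexpressor mock, 2884, 3485 and 3165 in wild-type salt and 2467, 2276 and 3087 in overexpressor salt. The overexpressor stood well below the wild type under mock, and the ranges overlapped under salt. The interaction was 1.98 (SE 0.22, adjusted p = 0.0070) and the mock difference -2.27 (SE 0.16, adjusted p = 2.8e-05).

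PS2, a phosphatase induced by phosphate starvation, read 522, 557 and 627 in wild-type mock, 104, 61.0 and 89.2 in overexpressor mock, 2034, 1820.1 and 2153 in wild-type salt, and 1280.4, 1404 and 1986 in overexpressor salt. Its interaction was 2.39 (SE 0.28, adjusted p = 0.0073), with a rise of 1.82 in wild-type and 4.21 in overexpressor seedlings. The mock groups again did not overlap. The purple acid phosphatase PAP17 read 1214, 1217 and 965 in wild-type mock, 267, 345 and 335 in overexpressor mock, 2924, 2189 and 3654 in wild-type salt and 2795, 2508 and 2792 in overexpressor salt, an interaction of 1.76 (SE 0.24, adjusted p = 0.019). SPX1 and PS2 stayed past the threshold with any 1 array left out, and PAP17 did so in 8 of 12 cases.

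The lipid-remodeling enzymes on this list moved in the same direction by estimate, without a call. MGD3, which makes galactolipids that replace phospholipids, had an interaction of 1.799 (SE 0.38, adjusted p = 0.062), with 85.3, 71.0 and 57.3 in overexpressor mock against 207, 297 and 276 in wild-type mock. The phospholipase D gene PLDP2 had 0.81 (SE 0.28, adjusted p = 0.26), and SPX3, a second SPX gene, had 1.24 (SE 0.42, adjusted p = 0.24). All 3 were lower in the overexpressor under mock.

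**Figure D3:**
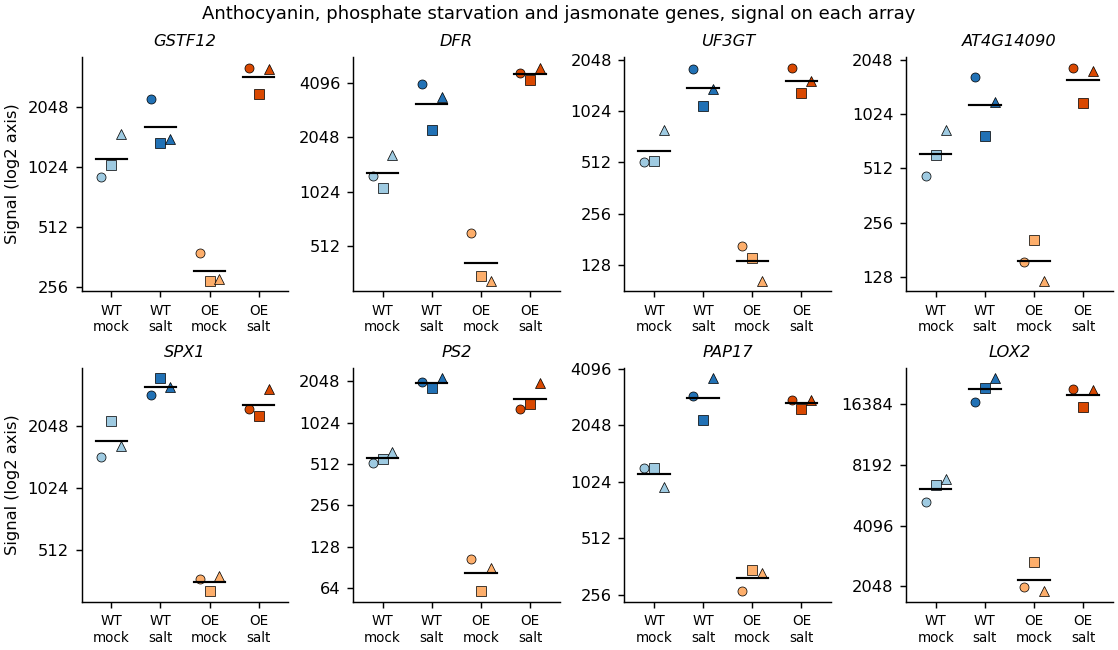
Signal on each array (log2 axis) for 4 anthocyanin genes, 3 phosphate starvation genes and the jasmonate gene LOX2, in wild type (WT, blue) and overexpressor (OE, orange) under mock and salt. Circles, squares and triangles are replicates 1, 2 and 3 and bars are means of the log2 signals, and in every panel the 3 overexpressor mock arrays lie below the 3 wild-type mock arrays.

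Sulfur deficiency genes had positive estimates and 0 called interactions. Of 17 listed genes 10 were measured, 8 of them through the supplementary tables. All 10 estimates were above 0, with a median interaction of 1.51. An unadjusted p of 0.05 was passed by 7, beside 12.1% of all probe sets. Those 7 were the 7 low-sulfur markers on the list (median 1.91), while the 3 genes of uptake and assimilation had a median of 0.21. LSU2, named for its response to low sulfur, had the smallest p of the list. Its signal was 673, 793 and 1239 in wild-type mock, 275, 251 and 122 in overexpressor mock, 3349, 1275 and 2485 in wild-type salt, and 3489.7, 3225 and 3238 in overexpressor salt, an interaction of 2.69 (SE 0.50, adjusted p = 0.0503). SDI1, a repressor of glucosinolate synthesis under low sulfur, read 434, 1120.2 and 999.6 in wild-type mock and 147, 98.9 and 93.0 in overexpressor mock, and its interaction was 2.77 (SE 0.59, adjusted p = 0.063). The mock groups of both genes did not overlap. Under mock 4 of the 10 were lower in the overexpressor, beside 98 of all 22746 probe sets, and under salt 0 differed. Because the supplementary tables hold genes selected on these same arrays, the shared direction and the mock count are not independent evidence. In 9 of the 10 genes wild-type salt replicate 2 had the lowest signal of its group.

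Of 24 jasmonate genes 17 were measured, and 1 had a called interaction. Jasmonate is a lipid-derived hormone of wounding and defense, whose synthesis begins with lipoxygenases in the chloroplast. LOX2, one of those lipoxygenases, read 5377, 6519 and 6967 in wild-type mock, 2027, 2694 and 1938 in overexpressor mock, 16819, 19722 and 22002 in wild-type salt and 19395, 15880.0 and 19286 in overexpressor salt. The genotypes stood apart under mock and overlapped under salt. The interaction was 1.41 (SE 0.24, adjusted p = 0.037), with a mock difference of -1.51 (adjusted p = 0.0015) and a salt difference of -0.10. It was called in 4 of the 12 fits that left out 1 array. Of the 17 genes 13 were paired through the supplementary tables, so how many responded to salt is largely set by that selection. Salt raised 16 of the 17 genes in wild-type and 17 in overexpressor seedlings (medians 3.77 and 3.83). Over all 22746 probe sets it raised 3917 and 3888. The median interaction of the 17 genes was 0.32.

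The salicylic acid and defense list had 7 of 14 genes measured, 6 of them through the supplementary tables. In the overexpressor 2 of the 7 were called lower under mock and 1 under salt, beside 98 and 178 of all 22746 probe sets. The interaction was called in 0 in limma, with a median of 0.16 and 1 gene in each direction past an unadjusted p of 0.05. PR2, a secreted glucanase of the defense response, had the smallest p. It read 164, 183 and 228 in wild-type mock, 10.8, 30.7 and 52.3 in overexpressor mock, 3738, 5933 and 6517 in wild-type salt and 3391, 3525 and 5055 in overexpressor salt. Only the mock groups were apart, and the interaction of 2.46 had an SE of 0.61 (adjusted p = 0.12).

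ABA and dehydration genes had their called genotype differences under salt, in 8 of 17 measured members, and 0 under mock. The list holds proteins that protect membranes and enzymes in drying cells, enzymes of osmolyte and ABA synthesis, and signaling components. Of 35 genes 17 were measured, 13 of them through the supplementary tables of genes selected on these same arrays. All 17 estimates were above 0, with a median of 1.13. Given that selection, neither their shared direction nor the count of salt differences is independent evidence. The interaction was called in 1, COR15B, and 11 passed an unadjusted p of 0.05, beside 12.1% of all probe sets. The median difference between genotypes was 0.06 under mock and 1.11 under salt. Under salt the 8 called members were higher in the overexpressor, beside 279 of all 22746 probe sets. The 11 protective proteins carried most of this, with a median interaction of 1.45 and 7 higher in the overexpressor under salt, while the 4 signaling genes had a median of 0.37 and 0 called differences under salt.

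COR15B encodes a protective protein of the chloroplast stroma. Its signal was 229, 329 and 252 in wild-type mock, 139, 210.3 and 148 in overexpressor mock, 364, 306 and 307 in wild-type salt, and 817, 626 and 641 in overexpressor salt. The overexpressor salt arrays lay above all others, and the overexpressor mock arrays lay below all others, with a mock difference of -0.71 that was not called (adjusted p = 0.17) and a salt difference of 1.09 that was (adjusted p = 0.018). Salt raised it by 2.08 in the overexpressor (SE 0.19), the change of 0.28 in the wild type was not called (adjusted p = 0.27), and the interaction was 1.798 (SE 0.27, adjusted p = 0.025). It was called in 5 of the 12 fits that left out 1 array. COR15A, its close relative and neighbour on the chromosome, had a larger estimate and no call, with 106, 222 and 329 in wild-type mock, 96.9, 196 and 96.3 in overexpressor mock, 5000.4, 405 and 1019 in wild-type salt and 13844, 12132 and 11121 in overexpressor salt. The interaction of COR15A was 3.97 (SE 0.98, adjusted p = 0.11), and the salt difference was 3.27 (SE 0.69, adjusted p = 0.034). Similar sequences of this pair could hybridise to each other's probes.

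The wild-type salt arrays spread widely in these genes. RD29A, a hydrophilic protein widely used as a marker of dehydration, read 4063, 384 and 913 in wild-type salt and 4440.4, 4524 and 4340.0 in overexpressor salt, with 216 to 298 in wild-type mock and 207 to 345 in overexpressor mock. Wild-type replicate 1 came close to the overexpressor, and replicates 2 and 3 stayed far below it. The interaction was 1.93 (SE 0.83, adjusted p = 0.38). The dehydrin RAB18 had the same order, with 2418, 182 and 592 in wild-type salt, 2744, 2009 and 1737 in overexpressor salt, and an interaction of 2.42 (SE 0.89, adjusted p = 0.29). In a second dehydrin, ERD10, wild-type salt read 6991, 2601 and 3415 and overexpressor salt 11931, 10841 and 11617, an interaction of 1.41 (SE 0.39, adjusted p = 0.16) with a salt difference of 1.53 (adjusted p = 0.019).

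Wild-type salt replicate 1 was the highest of its group in all 11 protective genes and in 16 of the 17 list members. Replicate 2 was the lowest in 14 of the 17. In 9 of the 11 protective genes each wild-type salt array lay below each overexpressor salt array, which was so in 2119 of all probe sets (9.32%). Of the 11, 7 were paired through the supplementary tables of genes selected on these same arrays, so this count is not independent evidence. The median interaction of the 17 genes was 1.51 without wild-type salt replicate 1, 0.88 without replicate 2 and 1.06 without replicate 3. In the shoot markers above, the same replicates 1 and 2 took the extreme places in the opposite order, and the part of this spread in the interaction was not tested.

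GOLS1, which makes galactinol for protective sugars, was a member with little spread. It read 105, 121 and 157 in wild-type mock, 183, 164 and 165 in overexpressor mock, 833, 1041 and 699.8 in wild-type salt and 2028, 2083 and 1876 in overexpressor salt. The genotypes did not overlap under either treatment, both times higher in the overexpressor. Its salt difference was 1.24 (SE 0.17, adjusted p = 0.0050) and its interaction 0.80 (SE 0.23, adjusted p = 0.18). COR413IM1, a protein of the chloroplast inner membrane, read 372, 87.7 and 131 in wild-type salt and 1286, 1154 and 1007 in overexpressor salt, with a salt difference of 2.82 (adjusted p = 0.017) and an interaction of 2.21 (SE 0.68, adjusted p = 0.20). For LEA14, a late embryogenesis abundant protein, the salt groups were 4966, 2742 and 2728 against 6606, 5985 and 6247, and the interaction was 0.86 (SE 0.27, adjusted p = 0.21).

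**Figure D4:**
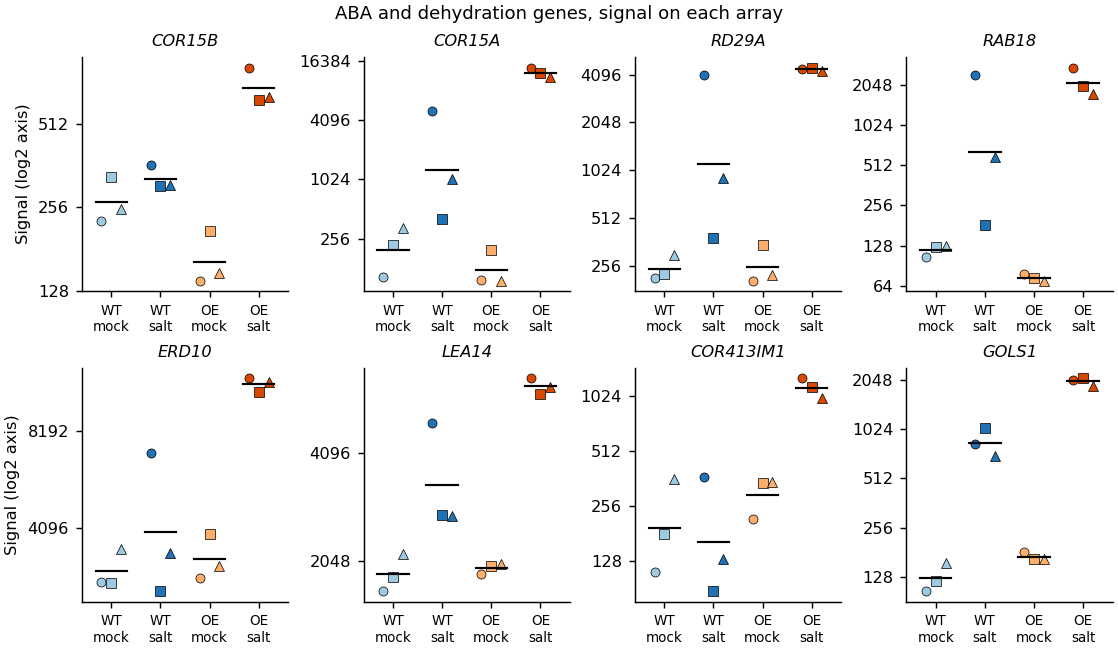
Signal on each array (log2 axis) for 8 ABA and dehydration genes in wild type (WT, blue) and overexpressor (OE, orange) under mock and salt, with circles, squares and triangles for replicates 1, 2 and 3 and bars for means of the log2 signals. In all panels but COR15B and GOLS1 wild-type salt replicate 1 (dark blue circle) is far above replicates 2 and 3, and the overexpressor salt arrays lie close together.

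The study also chose 6 genes for RT-qPCR on the basis of its array data. By RT-qPCR it reported that salt raised them more in PtSnRK2.7 overexpressors than in the wild type and a vector control. On the arrays 4 of these 6 could be paired with a probe set, and 0 had a called interaction in limma (3 passed an unadjusted p of 0.05). Besides COR15A, AT4G18280 read 1584, 269 and 578 in wild-type salt and 3492, 2786 and 2633 in overexpressor salt, an interaction of 2.49 (SE 0.62, adjusted p = 0.11). AT4G33550, annotated with lipid transport, read 3243, 429.8 and 1409 against 4054, 5085 and 4106, an interaction of 2.48 (SE 0.72, adjusted p = 0.17). In both genes the overexpressor arrays were all above the wild-type ones under salt and all below them under mock, where the differences were -0.25 and -0.67 and not called. For CWINV5, annotated as a cell wall invertase, the values were 663, 69.0 and 186 against 544, 775 and 716, and the interaction of 0.28 (SE 0.81, adjusted p = 0.93) turned to -0.50 without wild-type salt replicate 2. All 4 genes were highest in wild-type salt replicate 1 of that group and lowest in replicate 2.

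Among the 56 called positive probe sets, 4 further genes were picked for description after their values were seen, for their known roles. SWEET1, a sugar transporter of the plasma membrane, fell under salt in both genotypes and fell less in the overexpressor. It read 805, 746 and 735 in wild-type mock, 612, 566 and 644 in overexpressor mock, 260.2, 217 and 221 in wild-type salt and 457, 378 and 392 in overexpressor salt. The overexpressor arrays lay below the wild-type ones under mock (difference -0.33, adjusted p = 0.36) and above them under salt (0.81, adjusted p = 0.0075), and the interaction was 1.14 (SE 0.16, adjusted p = 0.022).

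AT3G21670 is a member of the nitrate and peptide transporter family, NPF6.4. It read 1464, 1721 and 1849 in wild-type mock, 2129, 1660.0 and 2074 in wild-type salt, 1082, 964 and 897 in overexpressor mock, and 3074, 2945 and 2833 in overexpressor salt. It was called lower in the overexpressor under mock (-0.77) and higher under salt (0.60), the gene in which both differences were called, and its interaction was 1.37 (SE 0.18, adjusted p = 0.014). ESP, a protein that steers the breakdown of glucosinolates, read 735, 514 and 699.9 in wild-type salt and 1424, 1365 and 1461 in overexpressor salt, and its mock values of 211, 258 and 302 against 209, 235 and 172 overlapped, with an interaction of 1.46 (SE 0.24, adjusted p = 0.034). The alpha-galactosidase gene AGAL1 rose in both genotypes with an interaction of 1.09 (SE 0.18, adjusted p = 0.037). Of the 12 fits that left out 1 array, AT3G21670 was called in 8, SWEET1 in 5, and ESP and AGAL1 in 3 each.

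The remaining genes among the 15 most positive are less well characterised. AT2G04050, annotated with drug transmembrane transport, read 26.8, 38.3 and 35.0 in overexpressor mock against 276, 151 and 336 in wild-type mock, and 3435, 3574 and 3013 against 5416, 2963 and 6072 under salt. Its mock groups were far apart and its salt groups overlapped, with an interaction of 2.41 (SE 0.42, adjusted p = 0.039). TBL26, of a family that acetylates cell wall polysaccharides, had 92.9, 47.5 and 48.9 in overexpressor mock against 218, 239 and 209.8 in wild-type mock, and an interaction of 2.23 (SE 0.37, adjusted p = 0.035). AT4G17470 (2.56, adjusted p = 0.028) and AT3G47480 (1.89, adjusted p = 0.033) were likewise lower in the overexpressor under mock with no called difference under salt.

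AT1G73040 was called higher in the overexpressor under salt, with 864, 891 and 966 against 393, 281 and 489. Its mock groups, 90.4, 141 and 77.7 against 168, 159.6 and 167, did not overlap either, but their difference of -0.73 was not called (adjusted p = 0.26). It had an interaction of 1.99 (SE 0.32, adjusted p = 0.031). These 5 genes were called in 3 or 4 of the 12 fits with 1 array left out. The most positive estimate among the paired genes belonged to AT2G20470, at 5.13 (SE 0.92, adjusted p = 0.044), but its signals were between 2.11 and 62.1 and 3 of its 4 group means lay below the 20th percentile of the arrays. AT1G13470, at 3.16 (SE 0.58, adjusted p = 0.047), read 2.18, 3.27 and 2.902 in overexpressor mock, also below that percentile. With signals raised to the 20th percentile these interactions were 0.93 and 0.07, and neither was called.

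RALFL27 had the most negative interaction among the paired genes. RALF peptides are small secreted signals that bind receptor kinases at the cell wall and regulate growth. Its signal was 162, 202 and 185 in wild-type mock, 264, 267 and 223 in overexpressor mock, 34.8, 78.7 and 58.5 in wild-type salt, and 3.23, 3.12 and 4.29 in overexpressor salt. Salt lowered it in both genotypes, and the overexpressor salt mean was below the 20th percentile of the arrays. The overexpressor lay above the wild type under mock (0.46, not called) and below it under salt (-3.95, adjusted p = 0.00016). The interaction was -4.41 (SE 0.45, adjusted p = 0.0036) and was called with any 1 of the 12 arrays left out, but with signals raised to the 20th percentile it was -1.67 (adjusted p = 0.076). Of the other 4 measured genes of the RALF list, 0 were called, and the peptide gene RALFL34 had a positive estimate of 0.84 (SE 0.18, adjusted p = 0.064).

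Cell wall genes gave 2 of the called negative interactions. The list covers extensins, which crosslink the wall, and enzymes and expansins that loosen it. Of 32 genes 17 were measured, 11 through the supplementary tables, with 2 called negative, 0 called positive and a median of -0.34. BGAL4, a beta-galactosidase, fell from 3516, 2319 and 1985 to 403, 505 and 237 in the wild type and from 4620.2, 4268 and 5493 to 159, 197 and 147 in the overexpressor. The genotypes did not overlap under either treatment, higher in the overexpressor under mock and lower under salt. Of the 12 called negative probe sets, 0 had a called genotype difference under both treatments, so these differences were not both called. The interaction of BGAL4 was -2.04 (SE 0.37, adjusted p = 0.044), and it was called in 4 of the 12 fits that left out 1 array.

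EXT3, an extensin, read 539, 442 and 417 in wild-type mock, 472, 518 and 409 in overexpressor mock, 306, 590.2 and 379 in wild-type salt and 116, 141 and 117 in overexpressor salt. It was level between genotypes under mock and lower in the overexpressor under salt, with an interaction of -1.72 (SE 0.30, adjusted p = 0.037), called in 2 of the 12 fits that left out 1 array. The probe set of EXT3 is of a type that can hybridise with related transcripts. The beta-xylosidase BXL2 missed the threshold at -1.72 (SE 0.34, adjusted p = 0.052), and the expansin EXPA10 had a positive estimate of 1.23 (SE 0.25, adjusted p = 0.053), so list members pointed both ways. The 9 xyloglucan enzymes had a median of -0.20 and 0 calls.

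AKINBETA1 and MCCA were higher in the overexpressor than in the wild type under mock, with no called difference under salt. AKINBETA1 is a regulatory subunit of SnRK1, the kinase complex that restrains growth when sugar is short. It read 771, 734 and 643 in wild-type mock, 1442, 1313 and 1477 in overexpressor mock, 316, 404 and 389.5 in wild-type salt, and 336, 397 and 307 in overexpressor salt. The mock groups were far apart and the salt groups overlapped. The interaction was -1.07 (SE 0.19, adjusted p = 0.038) and the mock difference 0.98 (adjusted p = 0.0055). The other 2 measured genes of the SnRK1 list had no called interaction.

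MCCA, a subunit of the carboxylase that breaks down leucine, read 775, 684 and 618 in wild-type mock and 579, 892 and 642 in wild-type salt. In the overexpressor it fell from 1229.7, 1283 and 1734 to 447, 545 and 552. The genotypes stood apart in both treatments, in opposite order, and the interaction was -1.45 (SE 0.25, adjusted p = 0.037). Both AKINBETA1 and MCCA were called in 2 of the 12 fits that left out 1 array.

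MCCA belongs to the dark and sugar starvation list, whose genes are switched on when carbon runs short. Of its 22 genes 16 were measured, 11 through the supplementary tables, with 1 called negative. An unadjusted p of 0.05 was passed by 8 on the negative side and 1 on the positive side. Over all 22746 probe sets those counts were 1369 and 1373. The median interaction of the 16 genes was -0.55, and 14 of 16 estimates were below 0. Under mock 5 of 16 were higher in the overexpressor (median 0.46), beside 30 of all 22746 probe sets, and under salt 0 differed (median -0.07). The supplementary tables hold genes selected on these same arrays, so neither the shared sign nor the mock count is independent evidence. ASN1, an asparagine synthetase, read 206, 53.3 and 119 in wild-type mock, 576, 852 and 1439 in overexpressor mock, 1502, 1929.8 and 2068 in wild-type salt, and 2091, 3186 and 2246 in overexpressor salt. It rose in both genotypes, less in the overexpressor by estimate, with an interaction of -2.58 (SE 0.59, adjusted p = 0.085). DIN1, a dark-induced gene, fell in both, from 2722, 2256 and 1838 to 123, 536 and 245 and from 6905, 5480.2 and 6543 to 132, 143 and 145, an interaction of -2.33 (SE 0.53, adjusted p = 0.081).

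**Figure D5:**
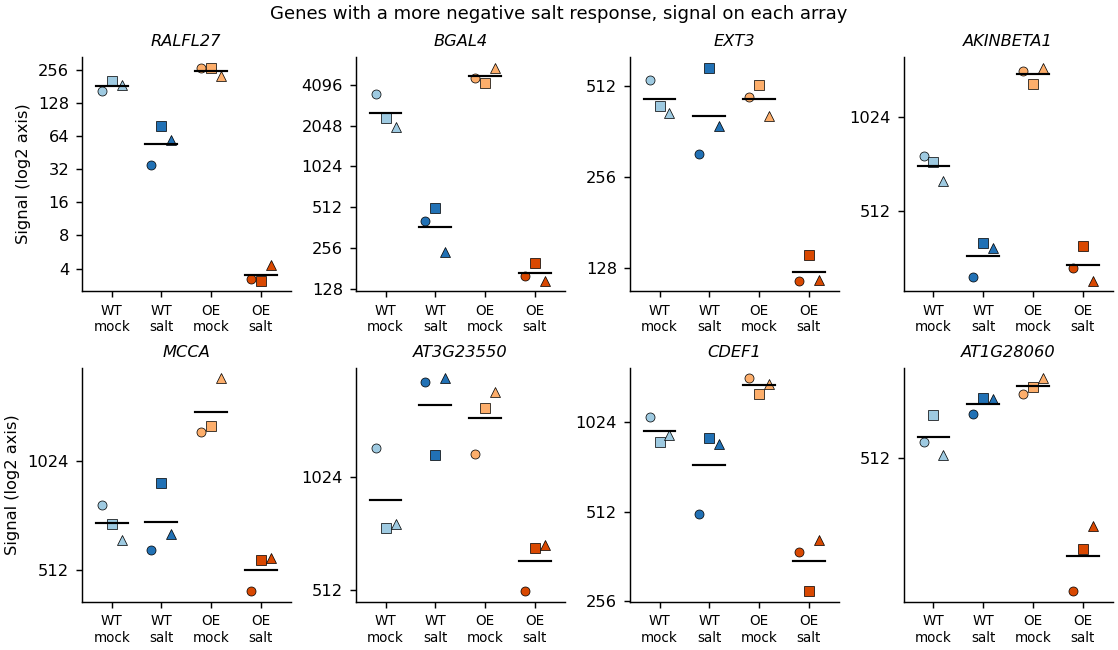
Signal on each array (log2 axis) for the 8 named genes whose salt response was more negative in the overexpressor (OE, orange) than in the wild type (WT, blue), under mock and salt. Circles, squares and triangles are replicates 1, 2 and 3 and bars are means of the log2 signals, and RALFL27 reaches 3.12 to 4.29 in overexpressor salt.

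The other 3 named genes with a called negative interaction were called lower in the overexpressor under salt, and 0 of them differed by a call under mock. AT3G23550 read 1228, 748 and 770.2 in wild-type mock, 1841, 1179.5 and 1887 in wild-type salt, 1181, 1572 and 1729.9 in overexpressor mock, and 508, 663 and 677 in overexpressor salt. It rose by 0.84 in the wild type and fell by 1.27 in the overexpressor, an interaction of -2.12 (SE 0.33, adjusted p = 0.028). CDEF1, a lipase of the cutinase type, read 503, 904 and 867 in wild-type salt and 375, 277 and 412 in overexpressor salt, with an interaction of -1.59 (SE 0.29, adjusted p = 0.047). AT1G28060, also named RDM16 for its part in RNA-directed DNA methylation, had tight groups, with 575, 601 and 598 in wild-type salt and 359.9, 402 and 427 in overexpressor salt, and an interaction of -0.77 (SE 0.14, adjusted p = 0.044). Under mock the overexpressor arrays of CDEF1 and AT1G28060 lay above the wild-type ones, by 0.52 and 0.19. AT3G23550 was called in 4 of the 12 fits that left out 1 array, and the other two in 2 each.

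Several lists had 0 called interactions in limma. Photosynthesis genes had 6 of 18 measured, 3 of these through the supplementary tables. Their median was -0.19, with 0 members past an unadjusted p of 0.05. That median was -0.58 without wild-type salt replicate 1, with 1 member called negative, 0.40 without replicate 2 and -0.19 without replicate 3. Salt lowered 5 of the 6 in wild-type and 6 in overexpressor seedlings, beside 4987 and 5463 of all 22746 probe sets. Anion and sodium transport genes, 8 of 25 measured and 7 of these through the supplementary tables, had a median of -0.04. The smallest p belonged to NRT3.1, a partner of nitrate transporters, at -0.65 (SE 0.20, adjusted p = 0.20). AT3G21670, the called gene of the nitrate and peptide transporter family described above, was not on that list. No sodium transporter on that list could be paired with a probe set. Of the 8, 1 passed an unadjusted p of 0.05. Ethylene genes, 3 of 14 measured (3 through the supplementary tables), had a median of 0.07. Iron genes, 2 of 11 measured (1 through those tables), had 0.46, with 0 past an unadjusted p of 0.05 in either list. Aliphatic glucosinolate genes, 6 of 13 measured, had a median of -1.03, 2 members past an unadjusted p of 0.05 and a fall under salt in both genotypes in 6 of 6 (4 of them paired through the supplementary tables, and 4987 and 5463 of 22746 probe sets fell in wild-type and overexpressor seedlings), with IPMI2, an enzyme of side-chain elongation, at -1.55 (SE 0.66, adjusted p = 0.38). In all 6, wild-type salt replicate 2 was the highest of its group, and without it the median was -0.32. Of the 10 Arabidopsis SnRK2 kinases SNRK2.8 alone was measured, at 370.3, 599 and 423 in wild-type mock, 116, 225 and 108 in wild-type salt, 316, 389.6 and 372 in overexpressor mock, and 126, 89.2 and 90.8 in overexpressor salt. It fell in both genotypes, with an interaction of -0.15 (SE 0.39, adjusted p = 0.92).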

How the data were processed

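The authors hybridised RNA from whole seedlings to ATH1 arrays in 4 groups of 3, described as independent biological replicates. The deposited values are MAS5 signal intensities on a linear scale, 1 per probe set, with MAS5 named in the submitters' processing notes. The scaling target and detection calls were not used here. Signals were taken to log2 without further normalization, and 64 control probe sets were left out, leaving 22746. limma 3.58.1 in R 4.3.3 fitted 4 group means (eBayes with an intensity trend), tested the interaction and its 4 component differences two-sided, and adjusted by Benjamini-Hochberg over all 22746. The fit and script were tested on simulated data, with the same spread in all 4 groups and changes placed only in brighter probe sets. That test cannot show how the calls behave with the wider spread of the wild-type salt arrays.

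Probe sets were paired with 1 gene through the platform annotation and RefSeq TAIR10.1 (13508) or, where that gave none, through probe and gene columns of the study's supplementary tables (698), and 14206 were paired in all. For a gene with several probe sets the one with the highest mean log2 signal was used. Named genes were the 15 most positive and 10 most negative by estimate among called, paired probe sets (8 existed), called members of 17 gene lists, the member with the smallest p in lists without a call, the RT-qPCR genes, and further members given to describe a list. The lists, members and rules were chosen with earlier results of these data known. Alternatives varied normalization, low signals, variance model, threshold, a replicate block and each array in turn.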

Additional observations from a re-analysis of the deposited data

Results flagged for a closer look

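In each of the 28 genes described above with a called interaction, it passed an adjusted p of 0.05 in the reported limma fit. All 28 lost that call with unequal variances, and 27 lost it without the intensity trend. The interactions, on the log2 scale, were as follows. Among genes that were lower in the overexpressor under mock, they were 3.16 for AT1G13470, 2.701 for GSTF12, 2.56 for AT4G17470, 2.42 for AT4G14090, 2.41 for AT2G04050, 2.39 for PS2, 2.301 for UF3GT, 2.23 for TBL26, 2.22 for DFR, 1.98 for SPX1, 1.89 for AT3G47480, 1.76 for PAP17, 1.41 for LOX2, 1.37 for AT3G21670 and 1.09 for AGAL1. Among genes that were higher in the overexpressor under salt without a called mock difference, they were 5.13 for AT2G20470, 1.99 for AT1G73040, 1.798 for COR15B, 1.46 for ESP and 1.14 for SWEET1. For genes with a more negative response they were -4.41 for RALFL27, -2.12 for AT3G23550, -2.04 for BGAL4, -1.72 for EXT3, -1.59 for CDEF1, -1.45 for MCCA, -1.07 for AKINBETA1 and -0.77 for AT1G28060. AT2G20470, AT1G13470 and RALFL27 have a group near background, so their values and their calls depend on how low signals are treated. With signals raised to the 20th percentile these 3 were not called.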

How the results depend on the processing

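None of the 28 genes described with a called interaction changed direction under an alternative, but the counts moved. Against 56 more positive and 12 more negative, they were 79 and 22 after quantile normalization and 145 and 25 after median centring, which moved the median interaction of all probe sets from -0.03 to 0.07. They were 109 and 42 when dim probe sets, below the 40th percentile of mean signal, were dropped (13647 tested), 67 and 18 with signals raised to the 20th percentile, 1 and 2 without the intensity trend, and 710 and 572 when arrays were weighted by quality, which put the weights of wild-type salt replicates 1 and 2 at 0.37 and 0.23 and of replicate 3 at 2.45. A single variance for each group gave 67 and 20. With unequal variances they were 0 and 0 (1914 at an unadjusted p of 0.05). At adjusted p of 0.01 they were 4 and 1, and at 0.10 they were 172 and 88. The replicate number as a block gave 17 and 1, and the deviations of same-numbered arrays correlated between -0.07 and 0.09 over 18 pairs, so the numbers were not taken to pair arrays. Of the 28 genes, 27 lost their call without the trend, 28 with unequal variances and 19 with the block. The 68 called probe sets all stayed called under quantile normalization and array quality weights, and 66 under median centring. The share of calls that was more positive was 82.4% in the reported fit, 78.2% after quantile normalization and 85.3% after median centring.

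Leaving out 1 array gave 4 to 466 more positive and 1 to 294 more negative. For wild-type salt replicates 1, 2 and 3 the counts were 209 and 114, 466 and 294, and 16 and 2. For wild-type mock they were 31 and 7, 7 and 1, and 9 and 1. For overexpressor mock they were 27 and 8, 19 and 2, and 4 and 1. For overexpressor salt they were 4 and 1, 13 and 1, and 4 and 1. List members called, 14 in the reported fit, were 1 when the intensity trend was dropped, 44 with quality weights, 0 with unequal variances, 8 with the replicate block, 4 at adjusted p of 0.01, 26 at 0.10, and 4 to 37 with 1 array left out. Uncalled interactions changed sign in 3 genes. SNRK2.8 was 0.082 with quality weights and 0.19 without wild-type salt replicate 2 (-0.35 to 0.19 over single arrays left out), RCA was 0.018 after quantile normalization and 0.12 without that array (-0.66 to 0.12), and CWINV5 was -0.50 without it (-0.50 to 1.13). With 3 arrays a group and signals near the 20th percentile, small differences and low genes are poorly measured.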
